A study of Mus musculus with 20 samples.

Results

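Gene expression in the hippocampus of GRA knockin mice was compared with that of wild-type mice in animals that received no added glucocorticoid. The comparison used 10 of the 20 RNA-seq libraries of the study, chosen by their labels: all 5 from PBS-injected knockin mice and all 5 from PBS-injected wild-type mice. All mice were male and on a C57BL/6 background, had their adrenal glands removed at about 2.5 months of age, received an intraperitoneal injection 2 weeks later, and were killed after 6 h. The knockin mice were homozygous for a replaced exon 2 of Nr3c1, in which 7 internal start codons were changed to isoleucine codons, so that only the full-length isoform GRA, and not the shorter isoforms from GRB to GRD, can be translated. The change is present in every cell from conception, and the sources used here do not state whether the wild-type mice were littermates. The other 10 libraries, from mice of the same genotypes given 1 mg/kg dexamethasone, a synthetic glucocorticoid, entered the fit only to share its estimate of spread and to give a scale for the differences.

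Nr3c1 encodes the glucocorticoid receptor, a nuclear receptor that is held by chaperones in the cytoplasm and moves to the nucleus when it binds corticosterone or dexamethasone. There it binds DNA as a dimer at short palindromic sites and raises or lowers transcription of nearby genes. The hippocampus is rich in this receptor and in the related mineralocorticoid receptor, and removal of the adrenals takes away most of the natural ligand of both.

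No gene was called different between the genotypes under PBS. Of 18648 genes with enough counts to test, 0 passed an adjusted p of 0.05 (0% called) in edgeR's quasi-likelihood test with Benjamini-Hochberg adjustment, and the lowest adjusted p was 0.833. At an unadjusted p under 0.05 there were 673 genes (3.61% of those tested), 355 with a higher estimate in knockin mice (1.9%) and 318 with a lower one (1.71%), fewer than the 932.4 that 5% of the genes would make. DESeq2 called 0 genes, with 586 at an unadjusted p under 0.05, and limma-voom called 0, with 636. For scale, the same fit called 1717 genes (9.21%) between dexamethasone and PBS in wild-type mice, a comparison that shares the wild-type PBS libraries with this one.

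Because no call does not mean no difference, each gene was also given the 95% interval of its difference. The median size of the difference was 0.05 on the log2 scale and the median half-width of the interval was 0.17. For 10279 genes (55.1%) the whole interval lay within 1.2-fold in either direction, for 15051 (80.7%) within 1.5-fold and for 17765 (95.3%) within 2-fold. The bound depended on how many reads a gene had. Among the 3453 genes above 6 log2 CPM (counts scaled to the normalized library total) the median half-width was 1.06-fold and 99.7% lay within 1.5-fold. Among the 2593 genes below 0 log2 CPM the half-width was 1.54-fold and 8.29% lay within 1.5-fold. The identifier AC164555.1, named after its values were seen, had no reads in any PBS library and so has no bound.

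**Figure D1:**
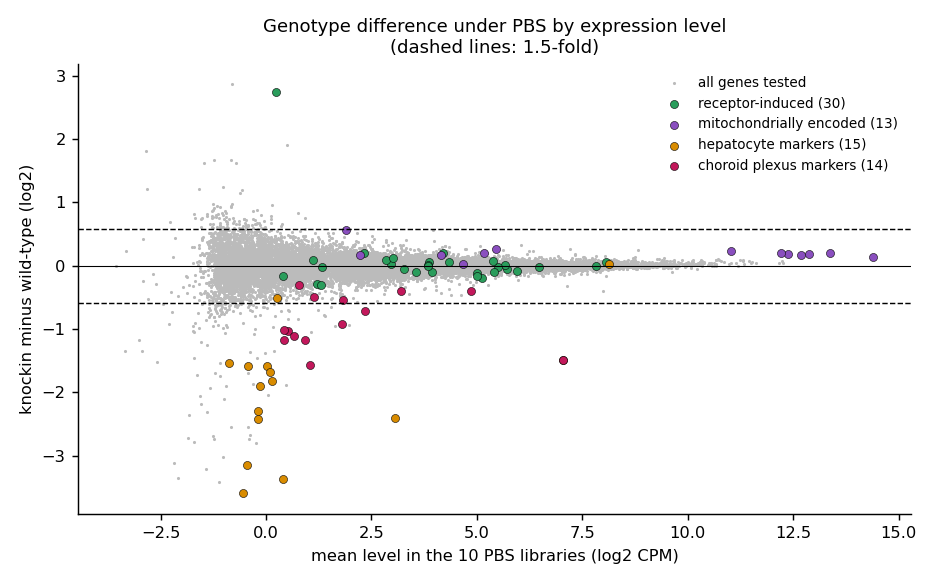
Difference between knockin and wild-type mice under PBS (log2, y axis) against mean level in the 10 PBS libraries (log2 CPM, x axis), 1 point per gene for the 18648 genes tested, with 4 gene lists coloured and dashed lines at 1.5-fold. The cloud narrows from left to right, and the coloured points farthest below 0 are hepatocyte and choroid plexus markers.

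**Figure D2:**
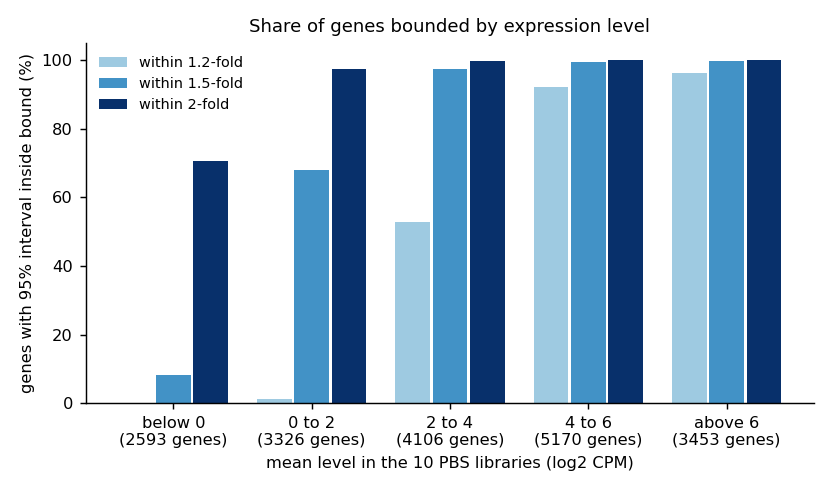
Share of genes (%, y axis) whose 95% interval for the genotype difference lay inside 1.2-fold, 1.5-fold or 2-fold, by mean level in the PBS libraries (log2 CPM, x axis). The share within 1.5-fold goes from 8.29% in the lowest class to 99.7% in the highest.

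The tightest bounds included genes of energy metabolism. Among genes above 3 log2 CPM, 5 of the 6 narrowest intervals belonged to Atp5a1 and Atp5b (subunits of the mitochondrial ATP synthase), Pfkm (phosphofructokinase), Purb (a single-strand nucleic acid binding protein) and Fam168b. Atp5a1 was at 784, 786, 774, 760 and 770 CPM in wild-type replicates 1 to 5 and at 789, 764, 761, 775 and 777 CPM in knockin replicates 1 to 5, the order in which values are listed throughout. These ranges overlapped almost fully, and the interval ran from 0.962 to 1.04 times the wild-type level. At the other end, the 6 widest intervals at that level belonged to Ttr, Alb, Enpp2, Clic6, Fmod and Rasd1, and 4 of these, described below, are made in liver, choroid plexus or both.

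The libraries held 11493014 to 30617506 assigned read pairs under PBS, and 25036 to 28619 genes with at least 1 count. Neither total counts (exact permutation test, two-sided, p = 0.468) nor genes detected (p = 0.460, n = 5 and 5) differed by more than their spread. Hippocampal identity was clear in both genotypes: Prox1, which marks dentate granule cells, was at 52.5 ± 5.95 TPM (transcripts scaled by length and library total; SD, n = 5) in wild-type and 54.3 ± 5.23 TPM in knockin mice, and Wfs1, which marks CA1 pyramidal cells, was at 125 ± 24.3 and 132 ± 21.2 TPM. Some libraries held RNA of neighbouring or outside tissue. Summed choroid plexus markers reached 1891 CPM in wild-type replicate 4 and 635 CPM in knockin replicate 3 against 44.2 to 379 CPM in the other 8. Summed hepatocyte markers other than Ttr and Trf reached 264 and 154 CPM in wild-type replicates 1 and 2 against 5.41 to 35.1 CPM in the other 8.

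What the genotypes shared was nearly the whole profile. Across the 18648 genes the 2 group means of log2 CPM had a Pearson correlation of 0.998, a description across genes that are not independent replicates. Pairs of libraries from different genotypes (25 pairs) had a median correlation of 0.9904, pairs within the knockin group (10 pairs) 0.9909 and pairs within the wild-type group (10 pairs) 0.9903. At 1 TPM or more, 16529 genes were found in all 5 wild-type and 16371 in all 5 knockin mice, and 16016 in all 10, which is 96.9% of the first set and 97.8% of the second. The 10 most abundant transcripts per length were the same in both genotypes, as were 99 of the top 100 and 986 of the top 1000. Genotype took up 10.4% of the variance among the 10 libraries, where 1 of 9 degrees of freedom makes 11.1%.

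The top of the expression profile was led by transcripts of the mitochondrial genome and Bc1, a short neuronal noncoding RNA. Among them mt-Co1, which encodes a cytochrome c oxidase subunit, stood at 39417 ± 2993 TPM (SD, n = 5) in wild-type and 42722 ± 1335 TPM in knockin mice. Below these came neuronal and glial genes. Snap25, a synaptic vesicle fusion protein, was at 3128 ± 142 and 3282 ± 180 TPM, Camk2a, the main synaptic calcium-dependent kinase of excitatory neurons, at 2495 ± 164 and 2568 ± 274 TPM, and Slc1a2, the main astrocyte glutamate transporter, at 1113 ± 33.5 and 1118 ± 40.1 TPM. The ranges of the 2 genotypes overlapped for each of these 3.

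The altered gene itself was transcribed in every knockin mouse. Nr3c1 (mm39 chr18:39543598-39623727, minus strand) was at 118, 118, 171, 139 and 131 CPM in wild-type and 148, 180, 197, 142 and 148 CPM in knockin mice. Every knockin library was above the wild-type median of 131 CPM, but the groups overlapped, since wild-type replicate 3 was higher than 3 knockin libraries. The difference was 0.26 on the log2 scale (SE 0.11, 95% interval 0.04 to 0.49, 1.02- to 1.41-fold), with an unadjusted p of 0.026 and an adjusted p of 1.00 in edgeR. Gene counts do not show the changed codons, which lie inside a retained exon, so they do not check the genotype labels. Under dexamethasone the same difference was 0.18 (unadjusted p = 0.128). Over the settings run the PBS difference ranged from 0.14 to 0.36. The lowest value came without wild-type replicates 1 and 2, the libraries with liver transcripts, and the highest without wild-type replicate 3.

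The mineralocorticoid receptor and the genes that set local steroid supply did not differ by more than their spread. Of the 9 genes listed, 7 had enough counts, 1 (Nr3c1) had an unadjusted p under 0.05, and the median difference was 0.00 on the log2 scale, against 0.00 over all genes. Nr3c2, which encodes the mineralocorticoid receptor, was at 255, 234, 406, 307 and 283 CPM in wild-type and 291, 377, 360, 243 and 271 CPM in knockin mice. Its groups overlapped over nearly their whole range, and the interval ran from 0.846 to 1.27 times the wild-type level. Hsd11b1, the enzyme that regenerates active corticosterone inside cells, was bounded between 0.893 and 1.11 times, and Abcb1a, the drug efflux pump that limits steroid entry into brain, between 0.867 and 1.08 times. Akr1c14, a reductase that makes neuroactive steroids, was low (2.35 ± 0.55 TPM in wild-type mice) and bounded only between 0.581 and 1.18 times. Hsd11b2, which inactivates corticosterone, and Serpina6, the blood carrier of corticosterone, had too few counts to test.

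The chaperones that fold the receptor and hold it ready for ligand were bounded within 1.2-fold in 11 of 12 cases (55.1% of all genes). That share over all genes rises with level, to 92.01% at 4 to 6 log2 CPM and 96.2% above 6. Among the 12 chaperones 2 had an unadjusted p under 0.05, both with the higher estimate in knockin mice, against 1.9% of all genes in that direction. Ptges3, the p23 co-chaperone, was at 56.6, 58.3, 54.4, 56.7 and 58.6 CPM in wild-type and 62.3, 61.4, 58.0, 62.0 and 66.5 CPM in knockin mice. Only knockin replicate 3 fell inside the wild-type range. Its difference was 0.12 (SE 0.04, 1.03- to 1.15-fold, unadjusted p = 0.00375, adjusted p = 1.00). Hsp90ab1, the constitutive Hsp90 that binds the receptor directly, was at 1547, 1626, 1504, 1583 and 1607 CPM against 1704, 1690.0, 1608, 1645 and 1691 CPM. The groups overlapped through knockin replicate 3 only, and the difference was 0.08 (1.02- to 1.10-fold, unadjusted p = 0.00756, adjusted p = 1.00). Fkbp4 and Fkbp5 compete for the same complex; Fkbp4 was bounded between 0.961 and 1.08 times and Fkbp5, described next, was the member outside 1.2-fold. All 12 listed coregulators, among them Ncoa1 and Crebbp, were bounded within 1.2-fold, and 0 of them had an unadjusted p under 0.05.

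None of Sgk1, Mt1, Txnip, Map3k6 and Fam107a, all genes that the receptor induces, was called different between the genotypes. Sgk1, a kinase that regulates ion channels, was at 50.4, 52.2, 47.6, 52.2 and 52.3 CPM in wild-type and 54.3, 48.7, 46.0, 50.7 and 56.2 CPM in knockin mice. The knockin range enclosed the wild-type range, and the interval ran from 0.843 to 1.196 times. Mt1, the metal-binding metallothionein 1, was at 107, 107, 78.6, 76.4 and 84.3 CPM against 84.9, 76.2, 77.2, 120 and 90.9 CPM. Fam107a, an actin-bundling protein of astrocytes and neurons, was at 291, 344, 222, 228 and 243 CPM against 258, 222, 229, 397 and 271 CPM. Both pairs of groups overlapped, with knockin replicate 4 the highest library for each. Intervals ran from 0.814 to 1.21 times for Mt1, 0.817 to 1.32 for Fam107a, 0.823 to 1.33 for Txnip and 0.619 to 1.57 for Map3k6, whose level was 1.73 ± 0.48 TPM in wild-type mice. The wild-type response to dexamethasone, in the same fit and with the same wild-type PBS libraries, was 1.47 on the log2 scale for Sgk1, 1.06 for Mt1, 1.18 for Fam107a, 0.79 for Txnip and 2.57 for Map3k6.

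Over all 30 listed receptor-induced genes the median difference between the genotypes under PBS was -0.01 on the log2 scale, with 14 estimates above 0 and 16 below; over all genes tested the median was 0.00. Of the 30, 4 (13.3%) were bounded within 1.2-fold, 20 (66.7%) within 1.5-fold and 28 (93.3%) within 2-fold. Over all genes tested these shares were higher, at 55.1%, 80.7% and 95.3%. In wild-type mice 24 of the 30 were called higher with dexamethasone (5.27% of all genes), with a median of 1.05. Klf9, a transcription factor of hippocampal neurons, was bounded between 0.907 and 1.10 times. Tsc22d3, which encodes the anti-inflammatory protein GILZ, was bounded between 0.865 and 1.27 times, and Per1, a clock gene with receptor sites, between 0.883 and 1.01 times. Summed over the list, the genes made 1290, 1372, 1008, 1066 and 1112 CPM in wild-type and 1121, 990.5, 1009, 1446 and 1201 CPM in knockin mice, and the groups overlapped.

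**Figure D3:**
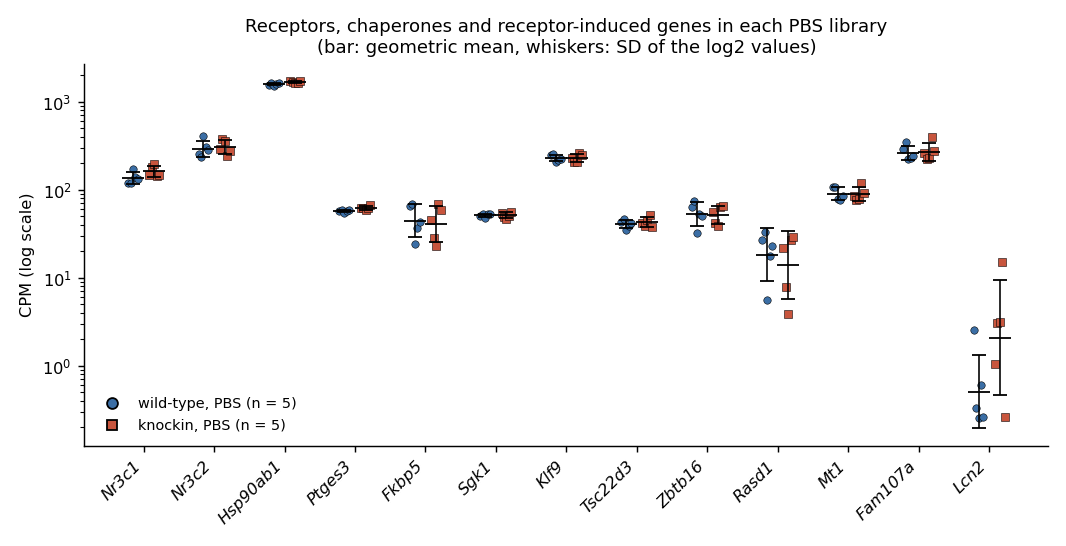
CPM (log scale, y axis) of 13 genes of the receptor system in each PBS library, with circles for 5 wild-type and squares for 5 knockin mice; bars are geometric means and whiskers the SD of the log2 values. The 2 genotypes overlap for every gene drawn, and the knockin square that stands highest for Lcn2 is replicate 4, at 15.1 CPM.

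Fkbp5, a chaperone that lowers ligand binding by the receptor and is itself induced by it, had a wide bound because mice of the same genotype differed. It was at 64.4, 69.2, 24.2, 36.2 and 43.4 CPM in wild-type and 45.3, 27.9, 22.7, 69.0 and 58.1 CPM in knockin mice. Low and high libraries occurred in both groups, so the ranges coincided. The difference was -0.10 (SE 0.31), an interval from 0.590 to 1.48 times, against a dexamethasone response of 1.61 in wild-type mice. Zbtb16, a zinc finger repressor strongly induced by glucocorticoids, had its 3 lowest libraries in the same mice, with 63.3, 74.3, 32.5, 52.8 and 50.7 CPM against 56.3, 41.8, 38.9, 64.0 and 64.4 CPM and an interval from 0.733 to 1.28 times.

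Of the 30 listed genes 1 had an unadjusted p under 0.05. This gene, Lcn2, which encodes the iron-siderophore binding protein lipocalin 2 of inflamed endothelium, astrocytes and neutrophils, was at 2.52, 0.330, 0.254, 0.609 and 0.261 CPM in wild-type and 1.03, 3.05, 3.13, 15.1 and 0.261 CPM in knockin mice. The highest value was knockin replicate 4, and knockin replicate 5 was as low as the lowest wild-type libraries, so the groups overlapped. The difference was 2.74 (SE 0.99, 1.57- to 28.4-fold, unadjusted p = 0.00871, adjusted p = 1.00), and without knockin replicate 4 it was 1.43. Under dexamethasone the knockin estimate for Lcn2 was lower than wild-type, by -0.92.

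Gene models, clone names and genes under 1 log2 CPM were left out when genes were ranked by p-value. The genes then ranked with the smallest p-values had small differences. Gapdh, a glycolytic enzyme, came first among them. It was at 110, 116, 108, 119 and 124 CPM in wild-type and 132, 131, 125, 130 and 124 CPM in knockin mice. The groups did not overlap, although the margin was within 1 CPM. The difference was 0.16 (SE 0.04, 1.06- to 1.18-fold), with an unadjusted p of 0.000178 and an adjusted p of 0.833. Of the 18648 genes, 125 (0.67%) had groups that did not overlap, 68 with knockin above and 57 below. Gapdh, like Rps27 below, has many processed copies in the genome, and only reads with a single position were counted, so its count is an uncertain fraction of its transcripts.

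Of the other 7 named genes with higher estimates in knockin mice, 3 are known from immune cells. Jak3, the kinase of the common gamma chain cytokine receptors, was at 7.45, 7.04, 6.64, 7.16 and 6.42 CPM in wild-type and 8.47, 8.82, 9.50, 9.81 and 7.49 CPM in knockin mice. The groups did not overlap, and the difference was 0.36 (SE 0.09, 1.13- to 1.46-fold, unadjusted p = 0.000402, adjusted p = 0.833). Itgam, the CD11b integrin of microglia, was 0.33 higher (unadjusted p = 0.00206, adjusted p = 1.00) and the interferon-induced ADP-ribosyltransferase Parp12 was 0.27 higher (unadjusted p = 0.00341, adjusted p = 1.00), and the groups overlapped for both. Dpysl2, a microtubule-binding protein of growing axons, was at 143, 147, 165, 149 and 149 CPM against 162, 180, 181, 169 and 163 CPM, with overlap through wild-type replicate 3 only. Its difference of 0.18 (1.07- to 1.21-fold, unadjusted p = 0.000343, adjusted p = 0.833) was 0.16 under dexamethasone. Ackr1, a chemokine scavenger of venous endothelium, was 0.26 higher and Klf6, a zinc finger transcription factor, 0.21 higher, with intervals from 1.09 to 1.31 times and from 1.06 to 1.27 times.

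Among genes with lower estimates, Rps27, a protein of the small ribosomal subunit, was at 6.22, 6.09, 6.07, 6.62 and 6.87 CPM in wild-type and 4.52, 4.80, 4.88, 5.37 and 4.79 CPM in knockin mice. All knockin libraries were below all wild-type libraries. The difference was -0.38 (SE 0.09, 0.673 to 0.872 times, unadjusted p = 0.000248, adjusted p = 0.833). Gpr3, an orphan receptor that raises cyclic AMP without a ligand, was at 2.90, 3.82, 3.14, 3.88 and 3.55 CPM against 2.10, 3.09, 2.34, 2.36 and 2.18 CPM. Only knockin replicate 2 reached the wild-type range. Its difference of -0.51 under PBS (unadjusted p = 0.00131) stood beside 0.38 under dexamethasone, and the test of that change gave an unadjusted p of 0.000136 and an adjusted p of 1.00.

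Of the other 6 of the 8 lower genes, 5 are given here. Rab33a, a small GTPase of vesicle traffic, was at 12.0, 13.0, 12.9, 13.4 and 12.6 CPM in wild-type and 10.8, 10.9, 10.9, 10.4 and 11.4 CPM in knockin mice, without overlap (difference -0.24, adjusted p = 1.00). Galt, an enzyme of galactose use, had a difference of -0.18 and Slit3, an axon guidance ligand, -0.13, and the groups overlapped for neither. Immp2l, a mitochondrial inner membrane peptidase, had a difference of -0.51 and Pptc7, a mitochondrial phosphatase, -0.14, and both overlapped. Of the 16 named genes picked by smallest p-value, 8 in each direction, 0 were called in edgeR.

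The transcripts of the mitochondrial genome leaned one way. All 13 protein-coding members had estimates above 0, with a median of 0.18 on the log2 scale against 0.00 over all genes, and 9 had an unadjusted p under 0.05 (1.9% of all genes in that direction). For 4 of them the groups did not overlap (0.67% of all genes), and 0 were called. The 13 come from 1 genome and share each library's mitochondrial content, so these counts are not of 13 independent differences. The level of mt-Co1 was at 18686, 21584, 18081, 21370 and 22413 CPM in wild-type and 23059, 21341, 22373, 23277 and 22842 CPM in knockin mice. Wild-type replicates 1 and 3 stood below the rest and the groups overlapped; the interval ran from 1.01 to 1.21 times. The transcript of mt-Co2, another cytochrome c oxidase subunit, was at 38.5, 42.0, 35.2, 40.9 and 44.3 CPM against 47.6, 45.1, 50.4, 49.5 and 48.8 CPM, without overlap. Its difference was 0.26 (SE 0.06, 1.10- to 1.31-fold, unadjusted p = 0.000304, adjusted p = 0.833), and it was 0.00 under dexamethasone. Both mt-Co2 and mt-Co3 have near-identical nuclear copies, so their counts are an uncertain fraction of their transcripts, whereas the ribosomal RNAs mt-Rnr1 and mt-Rnr2 had differences of 0.06 and 0.04.

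As a share of all counts, mitochondrial genes made 5.91, 6.80, 5.78, 6.71 and 6.91% in wild-type and 7.15, 6.77, 7.04, 7.22 and 7.16% in knockin mice. The means were 6.42 ± 0.533% and 7.07 ± 0.178% (SD, n = 5 each). The groups overlapped through knockin replicate 2, and the difference of 0.649 percentage points passed an exact permutation test, two-sided, with p = 0.0238 and 0.0476 after Benjamini-Hochberg adjustment over 4 library measures; the smallest p this design allows is 0.00794. In the dexamethasone libraries the share ran from 5.83 to 7.12% in wild-type and from 6.38 to 7.05% in knockin mice. The share of the 10 most abundant genes, which are mostly the same transcripts, gave the same p. The adjusted p of 0.0476 from the permutation test depends on counting both of these overlapping measures. Less mitochondrial RNA per cell and fewer cells rich in it cannot be told apart in whole tissue, here or for the cell type markers below.

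**Figure D4:**
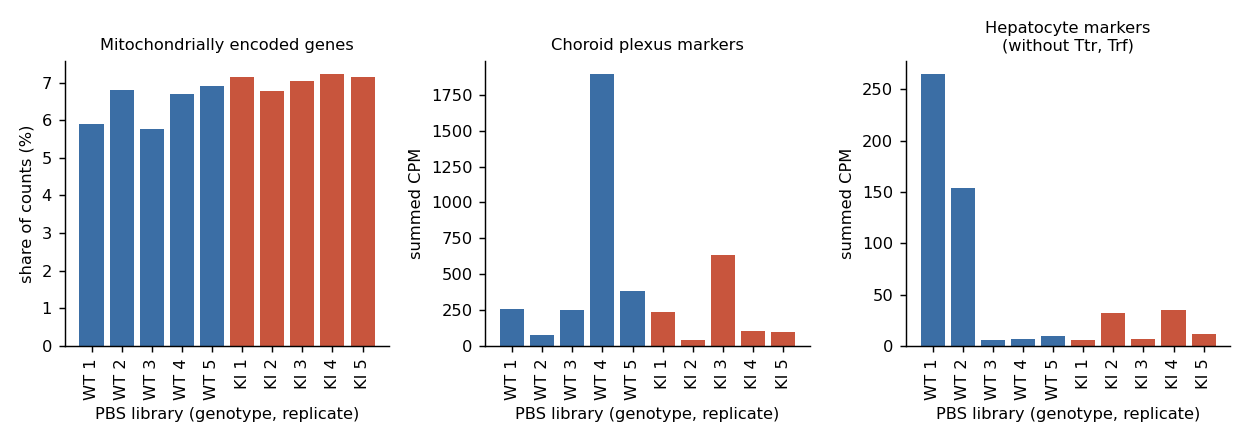
Share of counts from mitochondrial genes (%, left) and summed CPM of choroid plexus markers (middle) and of hepatocyte markers without Ttr and Trf (right) in each of the 10 PBS libraries, wild-type (WT) in blue and knockin (KI) in red. Bars start at 0; wild-type replicates 1 and 3 have the lowest mitochondrial shares, replicate 4 the most choroid plexus transcripts and replicates 1 and 2 the most hepatocyte transcripts.

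Genes of synaptic transmission had narrow bounds, as most highly expressed genes did: 92.01% of all genes at 4 to 6 log2 CPM and 96.2% of those above 6 lay within 1.2-fold, against 55.1% at any level. Of 25 listed glutamate receptor and kinase genes 21, and all 20 genes of the GABA system, were bounded within 1.2-fold, with medians of 0.01 and 0.00, and 0 of them had an unadjusted p under 0.05. Of 20 presynaptic release genes, 19 were bounded within 1.2-fold and 3 had a higher estimate at an unadjusted p under 0.05 (1.9% of all genes), among them Snap25 (0.10) and Vamp2 (0.10), fusion proteins of synaptic vesicles. Both had an adjusted p of 1.00 in edgeR. Gabbr1, a subunit of the metabotropic GABA receptor, was bounded between 0.959 and 1.04 times, and Slc17a7, the vesicular glutamate transporter of hippocampal pyramidal cells, between 0.967 and 1.09 times.

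Markers of the hippocampal subfields and of interneurons had 0 members with an unadjusted p under 0.05. The 9 CA1 genes had a median of -0.03 with 7 bounded within 1.5-fold, and the 14 genes of CA2 and CA3 -0.05 with 10. The 14 dentate granule genes had 0.02 with 13 and the 14 interneuron genes -0.03 with 14, against 80.7% of all genes. Within 1.2-fold lay 2 CA1 genes, 4 of CA2 and CA3, 3 dentate granule genes and 10 interneuron genes. The share of all genes within that bound was 55.1%. Prox1 was at 138, 144, 173, 142 and 139 CPM in wild-type and 146, 171, 134, 168 and 160 CPM in knockin mice. The groups overlapped, and the interval ran from 0.962 to 1.16 times. Amigo2, an adhesion molecule of CA2 and CA3, was less well bounded, with an interval from -0.90 to 0.26 on the log2 scale, with 27.7, 27.8, 9.27, 15.5 and 17.5 CPM against 19.5, 10.5, 8.54, 19.7 and 20.3 CPM. The interneuron peptides and markers Sst and Pvalb lay between 0.902 and 1.03 times and between 0.875 and 1.02 times.

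Neurotrophic factors held 3 lower estimates at an unadjusted p under 0.05 among 19 genes tested (1.71% of all genes in that direction), and 19 of 19 were bounded within 1.5-fold. Nrg1 (-0.30) and Fgfr3 (-0.16) were among the 3 lower ones, while Ntrk2, the receptor for brain-derived neurotrophic factor, was bounded between 0.939 and 1.04 times. Of 16 stress peptide genes tested, 13 had estimates below 0, with a median of -0.07, and 10 were bounded within 1.5-fold. Tac1, the substance P precursor, was the 1 member lower at an unadjusted p under 0.05 (-0.29, 0.676 to 0.984 times, adjusted p = 1.00 in edgeR). Crh, corticotropin-releasing hormone, was at 2.43 ± 0.59 TPM in wild-type and 1.68 ± 0.55 TPM in knockin mice and was bounded only between 0.507 and 1.01 times (unadjusted p = 0.0568). All 19 circadian clock genes were bounded within 1.5-fold and 16 within 1.2-fold, and of 19 immediate early genes 17 lay within 1.5-fold and 4 within 1.2-fold (80.7% and 55.1% of all genes). Of the immediate early genes 14 had estimates below 0, and 1, the transcription factor Egr3 (-0.12, unadjusted p = 0.0397, adjusted p = 1.00 in edgeR), was lower at an unadjusted p under 0.05.

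Glial and vascular marker lists differed in how tightly they were bounded. All 15 astrocyte genes were bounded within 1.5-fold (80.7% of all genes), with 1 higher (Slc1a3, the second astrocyte glutamate transporter, 0.09, unadjusted p = 0.0474) and 1 lower (Fgfr3) estimate at that p. All 15 microglial genes were bounded within 1.5-fold and 1 (Itgam) had an unadjusted p under 0.05. Of 16 oligodendrocyte genes, 15 were bounded within 1.5-fold but only 3 within 1.2-fold (55.1% of all genes), 14 had estimates above 0, with a median of 0.06, and 0 had an unadjusted p under 0.05. The myelin gene Mbp lay between 0.928 and 1.23 times. Of 15 endothelial genes 13 were bounded within 1.5-fold. Mural and meningeal markers were less well bounded, with 8 of 15 within 1.5-fold, 4 within 1.2-fold and 12 estimates below 0, and so were those of border macrophages, with 2 of 5 within 1.5-fold. Among the latter Cd163, a haemoglobin scavenger receptor, was lower at an unadjusted p under 0.05 (-0.47, 0.534 to 0.977 times, adjusted p = 1.00 in edgeR). Its highest wild-type value was 3.01 CPM, in replicate 2, a library with hepatocyte transcripts. The difference was -0.20 without wild-type replicates 1 and 2 and -0.64 without knockin replicate 1, the ends of its range over the settings run. Cholesterol synthesis genes had 13 of 15 estimates above 0, a median of 0.08, and 1 (Dhcr7, 0.12, unadjusted p = 0.0424) under 0.05.

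Most listed immune genes had estimates above 0, and 0 were called. Over all 18648 genes 9416 estimates lay above 0, and 1.9% of genes were higher at an unadjusted p under 0.05. Of 17 interferon response genes, 15 had estimates above 0 with a median of 0.19, and 1 (Ifit3b, 0.30, unadjusted p = 0.0341) had an unadjusted p under 0.05. Of 13 antigen presentation genes, 12 were above 0 with a median of 0.13, and 2 (Ciita, the master regulator of class II genes, 0.34, and Tap1, the peptide transporter, 0.25) were at that p. The 3 had an adjusted p of 1.00 in edgeR. Summed interferon response genes made 133, 123, 123, 128 and 122 CPM in wild-type and 126, 114, 131, 143 and 154 CPM in knockin mice. Knockin replicates 4 and 5 were above the wild-type range and replicate 2 below it. The median of the interferon genes was 0.07 without knockin replicate 5 and that of the antigen presentation genes 0.09 without knockin replicate 4.

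Of 19 inflammation genes, 6 had too few counts to test, among them Il1b, Tnf and Il6. The 13 tested had a median of 0.22, and 3 had a higher estimate at an unadjusted p under 0.05 (1.9% of all genes): Lcn2, the adhesion molecule Icam1 (0.51) and the cytokine signalling inhibitor Socs3 (0.76), the last named after its value was seen. All 3 had an adjusted p of 1.00 in edgeR. Summed inflammation genes were highest in knockin replicate 4, at 168 CPM, against 114 to 154 CPM in wild-type and 122 to 127 CPM in the other knockin mice. Of 10 listed neutrophil markers, 2 had enough counts to test. S100a9, the neutrophil calprotectin subunit, was at 3.24 CPM in knockin replicate 4 against 0.127 to 1.01 CPM in the other 9. Csf3r, the receptor for granulocyte colony-stimulating factor, was at 7.89 CPM there against 5.77 to 8.12 CPM in the other 9. Without that library the median of the inflammation genes was 0.03. The part of these cells in the Lcn2 and inflammation values was not tested.

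**Figure D5:**
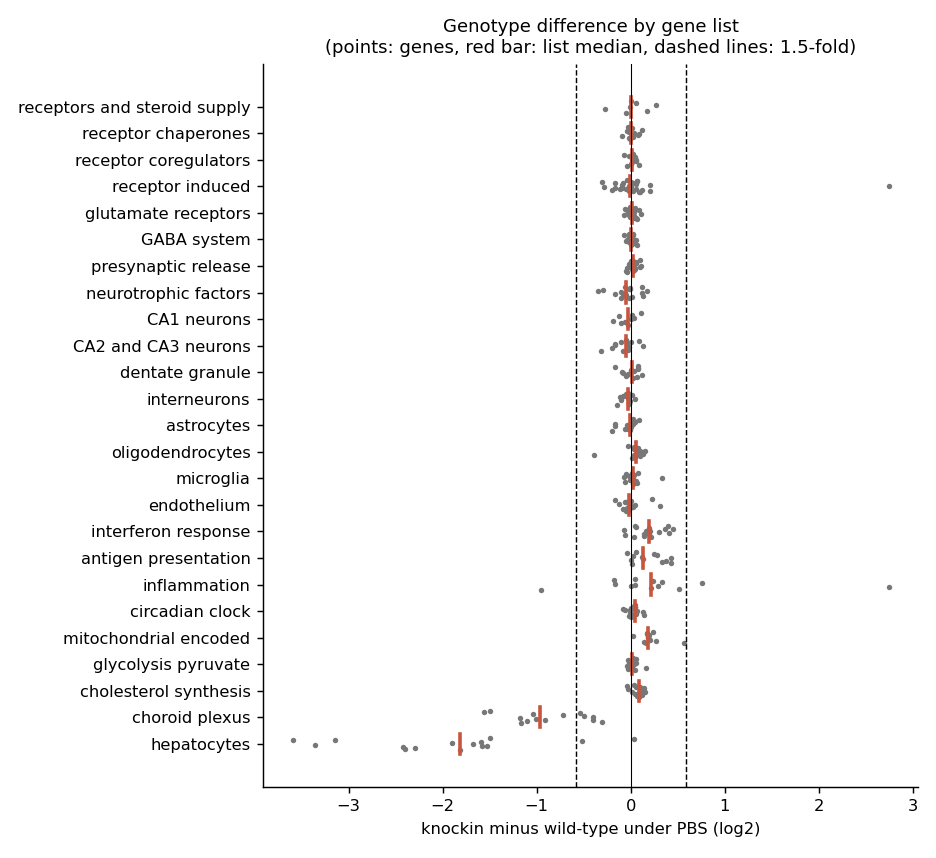
Difference between knockin and wild-type mice under PBS (log2, x axis) for the tested members of 25 gene lists (points), with the median of each list as a red bar and dashed lines at 1.5-fold. Medians lie close to 0 for receptor, synaptic, subfield and glial lists, at 0.18 for mitochondrial transcripts, and at -0.96 and -1.82 for choroid plexus and hepatocyte markers.

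The lists with the lowest estimates were markers of tissue outside the hippocampus, and they were poorly bounded. All 14 choroid plexus genes had estimates below 0, with a median of -0.96, 0 were bounded within 2-fold and 0 had an unadjusted p under 0.05. Ttr, the thyroxine carrier transthyretin, was at 176, 27.3, 199, 1632 and 302 CPM in wild-type and 175, 17.4, 534, 45.4 and 47.3 CPM in knockin mice. The groups overlapped, with wild-type replicate 4 above every other library, and the interval ran from 0.0588 to 2.14 times. Without wild-type replicate 4 the median of the choroid plexus list was -0.10.

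Hepatocyte markers had a median of -1.82, with 14 of 15 estimates below 0 and 7 at an unadjusted p under 0.05 (1.71% of all genes in that direction). Alb, serum albumin, was at 121, 71.9, 2.89, 2.66 and 4.40 CPM in wild-type and 2.42, 14.0, 2.49, 14.6 and 3.74 CPM in knockin mice, so that only wild-type replicates 1 and 2 stood above the knockin range. Without those 2 libraries the median of the list was 0.99, the opposite direction, and the difference of Alb was 1.17 in place of -2.40. The 9 genes found only in wild-type mice, at 10 counts or more in all, had at most 44 counts, and they include the liver genes Cyp2c37, Cyp2c54, Akr1d1, A1cf and Hsd3b5. The 4 found only in knockin mice had at most 11 counts. These 13 genes were listed by their counts, after the values were seen.

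Genes on either side of Nr3c1 were examined because a replaced exon is bred together with its neighbours. Within 10 Mb of the gene 452 genes are annotated and 206 were tested. Of these, 7 had a higher and 2 a lower estimate at an unadjusted p under 0.05, against 1.9% and 1.71% of all genes, and their median was 0.01. The higher ones included the protocadherins Pcdhb10 (0.29), Pcdhb18 (0.25) and Pcdha2 (0.32), clustered adhesion molecules whose overlapping and near-identical transcripts make their counts uncertain, and Sema6a (0.16), a guidance receptor. The lower ones were Sil1 (-0.13), an endoplasmic reticulum co-chaperone, and Gpr151 (-1.38), a habenular receptor that reached 6.20 CPM in wild-type replicate 2 against 0.326 to 1.22 CPM in the other 9. Of the 206, 175 (85.0%) were bounded within 1.5-fold, against 80.7% of all genes.

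The genotype difference was not shown to depend on treatment. Under dexamethasone 0 genes were called between knockin and wild-type mice, with 828 at an unadjusted p under 0.05, and the test of the change in the genotype difference between PBS and dexamethasone called 0 genes, with 527 at an unadjusted p under 0.05, all in edgeR. Spread between mice was alike in size: the median SD of log2 CPM over genes was 0.12 for the wild-type and 0.13 for the knockin group, and 10019 of the 18648 genes had the larger SD in the latter.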

How the data were processed

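Poly(A)-enriched libraries of hippocampal RNA were sequenced as 75-base read pairs, 1 library per mouse, and 10 PBS libraries were compared. The authors deposited raw counts per gene, made with featureCounts 2.0.6 on GENCODE release M34 per the file headers, which record read pairs counted without strand and without multi-mapping reads. STAR 2.5.1, Subread 1.5.1, DESeq2 1.38.3 and the build mm39 are named in the submitters' processing notes, with no role given. The headers and the notes give different counting versions. Genes overlapping on opposite strands cannot be told apart. Of 57126 identifiers 5242 had no symbol in the name table and held 0.264 to 0.337% of counts.

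From these counts, edgeR 4.0.16 (R 4.3.3) fitted 20 libraries with 1 term per group, trimmed-mean (TMM) normalization, a filter of 10 counts in the smallest group and robust quasi-likelihood; p-values were Benjamini-Hochberg adjusted over 18648 genes, with a threshold of 0.05. A 95% interval is the estimate with its quasi-likelihood standard error. The 1.2-fold bound was added after seeing the data and is given in place of a slightly wider one that had been planned and also computed. Alternatives were DESeq2 1.42.0, limma-voom 3.58.1, other filters and left-out libraries. CPM values of tested genes scale assigned pairs to the library's total over tested genes after TMM normalization. Summed CPM of lists and CPM of untested genes scale them to the whole library total, without TMM. TPM uses the deposited gene lengths. Named genes are Nr3c1, the 8 smallest p-values in each direction above 1 log2 CPM, and the receptor, chaperone and induced lists. Gene models and clone names were left out before the 8 were taken. Per other list, those with the smallest p or highest TPM were named. Neighbours within 10 Mb with an unadjusted p under 0.05 and the narrowest and widest intervals above 3 log2 CPM were also named, and results for some of these genes are not reported here. The comparison, lists and rules were chosen with earlier results of these data known. Scripts were tested on simulated data. No pair of libraries in a genotype agreed within sampling noise (chi-square per gene 2.98 to 12.6, 20 pairs).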

Additional observations from a re-analysis of the deposited data

Results flagged for a closer look

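Each value below lay far from the other 4 mice of its genotype, with a gap to its neighbour of more than 0.71 of the group's whole range. Of 194 groups of 5 examined, 19 held such a value. A rate of about 1 in 20 holds only for independent, normally distributed values. The groups examined overlap and include genes named for their wide intervals, so their count cannot be set against that rate. Knockin replicate 4 held the highest values of its group for Lcn2 (15.1 CPM), S100a9 (3.24 CPM), the summed inflammation genes (168 CPM), Fam107a (397 CPM) and the astrocyte transporter Slc1a3 (932 CPM). Wild-type replicate 4 held the highest values for the summed choroid plexus markers (1891 CPM), Ttr (1632 CPM), Enpp2 (745 CPM) and Clic6 (27.8 CPM), all expressed in choroid plexus. In wild-type replicate 3 the granule cell gene Prox1 (173 CPM) and Parp12 (11.5 CPM) were the highest of their group. Knockin replicate 5, the library with the fewest read pairs, was highest of its group for Abcb1a (40.1 CPM), Ncoa1 (214 CPM) and Pptc7 (48.9 CPM). Single values of this kind were also found for Gpr151 in wild-type replicate 2 (6.20 CPM), Lcn2 in wild-type replicate 1 (2.52 CPM), Hsd11b2 in wild-type replicate 5 (0.164 CPM), Gpr3 in knockin replicate 2 (3.09 CPM) and Sil1 in knockin replicate 3 (15.7 CPM).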

How the results depend on the processing

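No setting that was run called a gene between the genotypes under PBS; the lowest adjusted p was 0.0991, without a low-count filter, and 0.357 with DESeq2. Without a low-count filter 1560 of 39196 genes had an unadjusted p under 0.05, against 673 of 18648, with more genes tested. Leaving out each library in turn gave 566 to 864 such genes and 14501 to 14838 bounded within 1.5-fold, and 99% intervals gave 13672. Equivalence tests with Benjamini-Hochberg adjustment placed 15610 genes within 1.5-fold and 18056 within 2-fold. Deviations of same-numbered libraries correlated at -0.0957 to 0.219. Of 5 wild-type libraries 1, replicate 3, correlated best with the knockin library of its own number. So few values cannot exclude that replicate numbers pair the mice. The replicate block, a term for the number, gave 0 calls, 631 genes at an unadjusted p under 0.05 and 14986 within 1.5-fold. The unadjusted exact p of the mitochondrial share in the permutation test ran from 0.0159 to 0.0476 with each library left out. The adjustment over library measures was not repeated in these runs. They therefore do not show that the adjusted p stays under 0.05. Of 222 named genes 143 kept the sign of their estimate in every setting run. Hepatocyte markers changed sign without wild-type replicates 1 and 2, a setting chosen after seeing the data. Depth limits the bounds: below 0 log2 CPM, 8.29% of genes were held within 1.5-fold.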

Other observations

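Differences between mice of the same genotype exceeded those between genotypes for several genes of the receptor system, and some of these genes moved between mice together. Wild-type replicate 3 and knockin replicates 2 and 3 held the 3 lowest values of the 10 PBS libraries for Fkbp5 (24.2, 27.9 and 22.7 CPM, against 36.2 to 69.2 CPM in the other 7). The same 3 mice were lowest for Rasd1, a small GTPase induced by dexamethasone (5.59, 7.85 and 3.87 CPM, against 17.6 to 32.8 CPM), and for Zbtb16 (32.5, 41.8 and 38.9 CPM, against 50.7 to 74.3 CPM). They were also lowest for Amigo2 (9.27, 10.5 and 8.54 CPM, against 15.5 to 27.8 CPM) and for Penk, the enkephalin precursor (11.4, 13.7 and 10.9 CPM, against 14.6 to 24.5 CPM). In the same 3 mice Nr3c1 (171, 180 and 197 CPM, against 118 to 148 CPM) and Nr3c2 (406, 377 and 360 CPM, against 234 to 307 CPM) were the highest of the 10. These genes and mice were picked out after their values were seen, the mice come from both genotypes, and no cause of the differences between mice was tested.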
